A study of Mus musculus with 23 samples.

Results

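Schwann cells are the glia of peripheral nerves, and the myelin they wrap around motor and sensory axons speeds conduction. Muscle fibers make no myelin, so that transcripts of myelin proteins in a piece of muscle are usually read as coming from the nerve branches inside it, where non-myelinating Schwann cells also cap the neuromuscular junction. The transcription factor SOX10 keeps the Schwann cell fate and, together with EGR2, switches on the genes of myelin proteins.

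Here 6 genes of Schwann cells and myelin, Sox10, Pmp22, Mbp, Mag, Prx and S100b, were followed in RNA of the quadriceps, the large muscle of the front thigh. They were chosen by name and matched by symbol to the Ensembl IDs of the table of counts, and they are 6 of 55573 gene IDs. All 6 were among the 13049 genes tested, those whose normalized count exceeded 20 in 4 or more mice of some group. The mice were C57Bl6 animals (C57BL/6J in the methods) of 8 to 10 weeks, and all carried a pellet under the skin of the neck for 14 days and were fasted before sampling. Corticosterone-treated mice (CORT) had a pellet of 50 mg corticosterone, the main glucocorticoid of mice, with 50 mg cholesterol, and vehicle-treated mice (VEH) had 100 mg cholesterol. There were 6 VEH males, 6 CORT males, 6 VEH females and 5 CORT females, and a mouse is named M or F with its label number. Counts on genes lay between 20904150 and 21984477 per mouse. Levels are given as CPM, a count relative to the library size as scaled by edgeR's TMM method.

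The label of the genes was checked against other markers. Cnp, which encodes an enzyme of myelinating glia, lay between 8.87 and 24.0 CPM and was present in every mouse. It belongs to a wider list of 26 genes of myelinating Schwann cells, of which Pou3f1, Gldn and Gal3st1 were under 1 CPM in every mouse. Gjb1 of that list ranged from 0.187 to 13.1 CPM and did not follow the 6 genes between mice (r = -0.069 with their mean deviation from the group means). Mpp6 and Plekhb1 ran against the 6 genes, as given further on. Melanocytes also use Sox10, and 3 of 4 melanocyte markers, Tyr, Pmel and Mlana, were under 1 CPM in every mouse. The fourth, Dct, reached 1.98 (F6), 1.83 (F10), 1.5 (F3) and 1.5 CPM (F2) in females and 1.01 CPM in M8, and its part in the Sox10 values below was not tested. Of 4 axonal markers Nefl, Nefm and Nefh were under 1 CPM in every mouse, and Prph, another neuronal filament gene, reached 1.14 CPM in F7. Their transcripts are made in nerve cell bodies, which lie outside the muscle. Outside nerve, S100b is also made by adipocytes and Pmp22 by several kinds of connective tissue cell.

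Promoter sequence is shown because the 6 genes moved together from mouse to mouse, as described further on. RefSeq promoter windows on GRCm38.p6 covered Pmp22, Mag, Prx and S100b, 4 of the 6 genes, with 9 windows in all. For each of these genes the 250 bases before the transcription start nearest to the annotated gene start are given from 5′ to 3′ on the strand of the gene. Capitals mark a SOX motif (ACAAAG or ACAATG) or an EGR motif (GNGTGGGNG) on either strand. The Pmp22 stretch lies at chr11:63128732-63128981 on the plus strand, the Mag stretch at chr7:30914864-30915113 on the minus strand, the Prx stretch at chr7:27499074-27499323 on the plus strand and the S100b stretch at chr10:76253586-76253835 on the plus strand.
Pmp22: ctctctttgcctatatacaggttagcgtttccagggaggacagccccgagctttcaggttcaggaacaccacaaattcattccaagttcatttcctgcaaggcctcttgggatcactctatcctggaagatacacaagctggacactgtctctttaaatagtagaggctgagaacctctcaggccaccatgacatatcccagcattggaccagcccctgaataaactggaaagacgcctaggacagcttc
Mag: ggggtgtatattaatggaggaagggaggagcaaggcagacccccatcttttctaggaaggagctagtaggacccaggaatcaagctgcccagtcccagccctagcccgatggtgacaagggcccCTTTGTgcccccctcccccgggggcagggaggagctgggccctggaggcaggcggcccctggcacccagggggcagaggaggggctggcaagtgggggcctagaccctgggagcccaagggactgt
Prx: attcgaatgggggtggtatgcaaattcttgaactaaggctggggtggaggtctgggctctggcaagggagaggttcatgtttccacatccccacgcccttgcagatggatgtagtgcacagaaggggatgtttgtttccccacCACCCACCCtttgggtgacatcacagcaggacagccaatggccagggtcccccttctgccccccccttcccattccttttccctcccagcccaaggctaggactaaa
S100b: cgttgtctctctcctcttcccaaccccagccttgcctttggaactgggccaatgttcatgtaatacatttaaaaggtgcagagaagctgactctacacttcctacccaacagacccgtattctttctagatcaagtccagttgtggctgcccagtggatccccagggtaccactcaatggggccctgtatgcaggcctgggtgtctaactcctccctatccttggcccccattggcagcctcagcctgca

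A SOX motif stood in the Mag window, starting at position -126 from the transcription start, and an EGR motif in the Prx window, at position -107. The Pmp22 and S100b windows held neither. SOX motifs were present in 28.6% and EGR motifs in 14.3% of 32851 RefSeq promoter windows of 300 bases. The glucocorticoid receptor half-site AGAACA stood in none of the 9 windows, against 19.0% of all windows. These are matches of letters only, and binding was not measured.

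In CORT-treated animals 4 of the 6 genes, Pmp22, Mbp, Sox10 and S100b, were lower in males than in females, by a factor between 2.64 and 3.26. Of all tested genes 23.3% passed in either direction and 14% were lower in males. Sox10 was among the tested genes only through the female groups, so that its call is not independent of the count filter. Without the CORT female F10 1 of the 6 passed, and 14.4% of all tested genes. Without F2, F6 and F10, which left F4 and F8 as CORT females, none of the 6 did, with 0 at an unadjusted p under 0.05 in edgeR. Of all tested genes 1.58% then passed. No member changed past the threshold between CORT and VEH in either sex, where 26.3% of tested genes passed in males and 13.4% in females. The 6 genes were higher or lower together in single mice of every group. In females Mag was low relative to Pmp22, Mbp and Prx in every CORT mouse, a comparison that did not pass correction for the number of ratios compared. Mag passed the count filter only through the VEH females, so that a lower Mag with CORT is not independent of the filter. These ratios also share the same Mag counts.

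**Figure D1:**
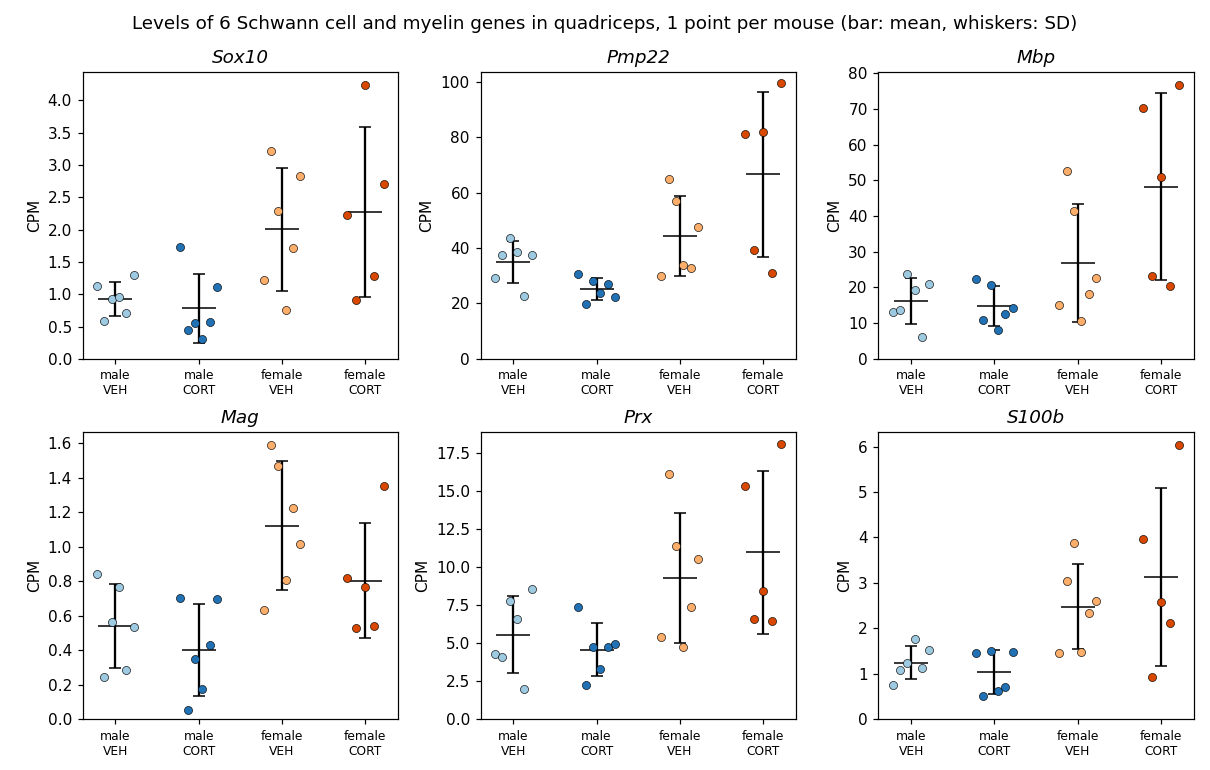
Level of each gene in CPM (vertical axis) in the 4 groups (horizontal axis), with 1 point per mouse, a bar at the mean and whiskers of 1 SD. The CORT females spread widest for Pmp22, from 31.1 to 99.7 CPM, and all 6 CORT males lay below them, between 19.8 and 30.8 CPM.

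The 6 genes differed widely in level. Per kilobase of exon in VEH males, Pmp22 stood highest at 14.8 ± 3.20 CPM per kb (SD, n = 6). Mbp followed at 1.91 ± 0.765, Prx at 0.993 ± 0.451, S100b at 0.838 ± 0.241, Sox10 at 0.305 ± 0.0854 and Mag at 0.132 ± 0.0598 CPM per kb (SD, n = 6 each). Prx and S100b did not differ beyond their spread in this order, and in VEH females they were at 1.66 ± 0.768 and 1.66 ± 0.631 CPM per kb (SD, n = 6). Depth differed accordingly. Over the 23 mice together Pmp22 had 21150 counts, Mbp 13039, Prx 3755, S100b 978, Sox10 747 and Mag 359. Single mice had as few as 1 count of Mag and 7 of Sox10, so that values of these genes in 1 mouse carry a large counting error. Mag passed the count filter only through the VEH females, and Sox10 only through the 2 female groups. Lower values of these genes in the other groups are therefore not independent of the filter.

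Sox10 (ENSMUSG00000033006, GRCm38 chromosome 15, 79154908 to 79165240, minus strand) encodes the factor that defines the lineage. Its lowest, median and highest levels were 0.586, 0.939 and 1.29 CPM in VEH males and 0.309, 0.560 and 1.72 CPM in CORT males. VEH females had 0.757, 2.0 and 3.22 CPM, and the CORT females had 2.23 (F2), 0.915 (F4), 4.24 (F6), 1.28 (F8) and 2.7 CPM (F10). The sexes overlapped in both treatments, with M2 highest among the CORT males and F6 highest among the CORT females. With CORT against VEH the log2 fold change (log2FC) was -0.26 (SE 0.43) in males and 0.19 (SE 0.41) in females.

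Pmp22 (ENSMUSG00000018217, chromosome 11, 63128982 to 63159547, plus strand) encodes a membrane protein of compact myelin whose dosage matters, since its duplication causes a hereditary neuropathy in humans. VEH males had a lowest, median and highest level of 22.7, 37.5 and 43.6 CPM, and CORT males had 19.8, 25.4 and 30.8 CPM. VEH females had 29.8, 40.8 and 65.2 CPM. The CORT females fell apart, with 81.1 (F2), 81.9 (F6) and 99.7 CPM (F10) above every VEH female and 39.4 (F4) and 31.1 CPM (F8) within the VEH range. All 6 CORT males lay below the VEH male mean, although the groups overlapped.

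Mbp (ENSMUSG00000041607, chromosome 18, 82475146 to 82585637, plus strand) encodes the protein that holds the inner faces of the myelin membrane together. Its lowest, median and highest levels were 6.02, 16.5 and 23.8 CPM in VEH males, 8.16, 13.3 and 22.4 CPM in CORT males, and 10.6, 20.4 and 52.6 CPM in VEH females. The CORT females had 70.2 (F2), 23.2 (F4), 50.8 (F6), 20.3 (F8) and 76.8 CPM (F10). The same females, F2 and F10, stood above all VEH females, and F6 fell just inside their range.

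Mag (ENSMUSG00000036634, chromosome 7, 30899176 to 30914873, minus strand) encodes an adhesion protein on the myelin membrane that faces the axon. It was the scarcest of the genes, with 0.244, 0.549 and 0.842 CPM as the lowest, median and highest level in VEH males, 0.0553, 0.389 and 0.701 CPM in CORT males and 0.634, 1.12 and 1.59 CPM in VEH females. The CORT females had 0.818 (F2), 0.530 (F4), 0.768 (F6), 0.541 (F8) and 1.35 CPM (F10). Mag was the only member whose mean was lower in CORT than in VEH females, 0.802 against 1.12 CPM.

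Prx (ENSMUSG00000053198, chromosome 7, 27499324 to 27520214, plus strand) encodes periaxin, a scaffold of the outer Schwann cell membrane. Its lowest, median and highest levels were 1.97, 5.43 and 8.57 CPM in VEH males, 2.21, 4.72 and 7.38 CPM in CORT males, and 4.73, 8.94 and 16.1 CPM in VEH females. The CORT females had 15.3 (F2), 6.55 (F4), 8.41 (F6), 6.45 (F8) and 18.0 CPM (F10), so that F10 alone exceeded the VEH females.

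S100b (ENSMUSG00000033208, chromosome 10, 76253853 to 76261159, plus strand) encodes a calcium-binding protein used as a general Schwann cell marker. Its lowest, median and highest levels were 0.748, 1.18 and 1.77 CPM in VEH males, 0.497, 1.08 and 1.5 CPM in CORT males, and 1.46, 2.47 and 3.88 CPM in VEH females. The CORT females had 3.96 (F2), 0.915 (F4), 2.59 (F6), 2.12 (F8) and 6.04 CPM (F10). F4 lay among the males and F10 above all other females.

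Corticosterone was compared with vehicle within each sex. In males all 6 genes had a lower fitted level with CORT, with log2FC from -0.46 (Pmp22) to -0.12 (Mbp) and a median of -0.27, against -0.021 over all tested genes. None passed an adjusted p of 0.01, and none had an unadjusted p under 0.05 (quasi-likelihood test of edgeR with Benjamini-Hochberg adjustment), where 26.3% of tested genes passed. DESeq2 and limma-voom also called 0 of the 6. For Pmp22 the log2FC was -0.46 (SE 0.25, adjusted p = 0.144), lower than the VEH mean in 6 of 6 mice. In bulk muscle, fewer Schwann cells, less of a transcript per Schwann cell and a change in other cells that make it cannot be told apart. In the same comparison 4 of 6 fibroblast markers were lower with CORT (median log2FC -2.29), and 0 of 5 endothelial and 0 of 5 macrophage markers passed. The part of such cells in the Pmp22 value was not tested.

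In females 5 of the 6 genes had a higher fitted level with CORT and Mag a lower one, and the median log2FC was 0.29 against 0.035 over all tested genes. Again 0 passed in edgeR, DESeq2 or limma-voom, while 13.4% of tested genes passed in edgeR. Pmp22 came nearest, with a log2FC of 0.59 (SE 0.26, unadjusted p = 0.0319, adjusted p = 0.0944), higher than the VEH mean in 3 of 5 mice. Mbp had the largest log2FC, 0.85 (SE 0.42, unadjusted p = 0.0528, adjusted p = 0.135), also higher in 3 of 5 mice, and Mag had -0.47 (SE 0.39, adjusted p = 0.390), lower in 4 of 5. Without F10, Prx and S100b no longer had a positive log2FC (-0.038 and -0.070), and without F6 Sox10 did not either (-0.18).

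Whether the sexes responded differently was tested by an interaction term of sex with treatment. The term passed for 0 of the 6 genes in edgeR, DESeq2 and limma-voom, and for 0.69% of tested genes in edgeR. Pmp22 had a log2FC of -1.05 (SE 0.36, unadjusted p = 0.00759, adjusted p = 0.0545), the 1 member with an unadjusted p under 0.05 in edgeR, and the other members lay between -0.98 (Mbp) and 0.054 (Mag).

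**Figure D2:**
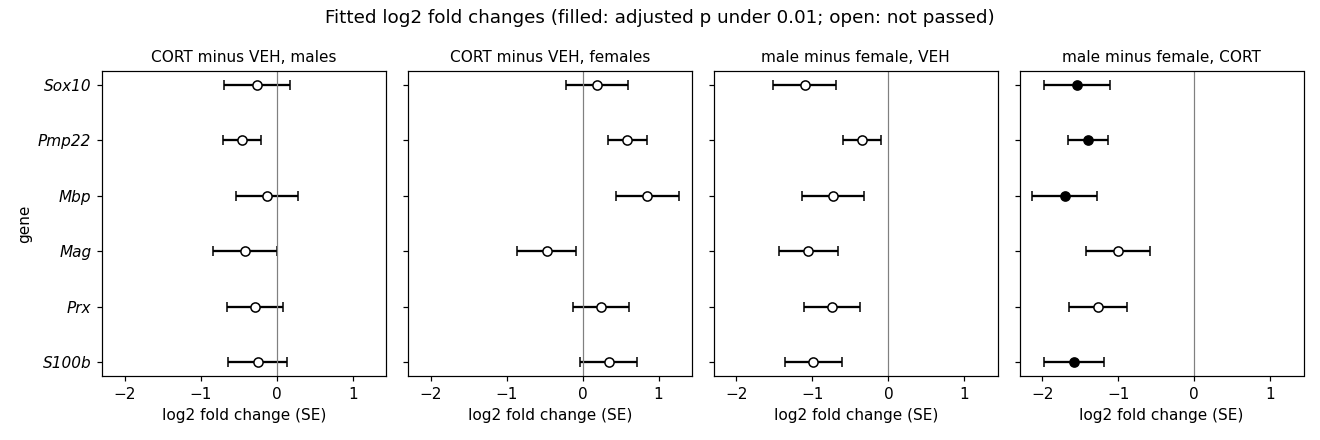
Fitted log2 fold change of each gene (horizontal axis, whiskers of 1 SE) for CORT minus VEH in each sex and for male minus female in each treatment, with filled points past an adjusted p of 0.01. Filled points appear for male minus female under CORT at Sox10, Pmp22, Mbp and S100b, between -1.40 and -1.70.

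Males and females were compared within each treatment. With vehicle all 6 genes were lower in males, with log2FC from -0.35 (Pmp22) to -1.10 (Sox10) and a median of -0.86 against -0.00338 over all tested genes. None passed in edgeR, DESeq2 or limma-voom, and 3 of the 6 (Sox10, Mag and S100b) had an unadjusted p under 0.05 in edgeR, with adjusted p between 0.190 and 0.205. Sox10 and Mag had passed the count filter only through females. Of all tested genes 0.958% passed. Every gene had its mean in VEH males below that in VEH females, for Sox10 0.931 ± 0.261 against 2.0 ± 0.947 CPM (SD, n = 6 each), and the groups overlapped for every gene.

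With CORT 4 of the 6 genes passed, all lower in males, where 23.3% of tested genes passed in either direction and 14% were lower in males. The median log2FC of the 6 genes was -1.47, against -0.029 over all tested genes. Male Pmp22 was at 25.3 ± 4.03 CPM against 66.7 ± 29.7 CPM in females (SD, n = 6 and 5). The difference was -1.40 on the log2 scale (SE 0.26, adjusted p = 0.000486), and Pmp22 alone of the members showed no overlap, which 5.55% of tested genes did in this direction. Mbp was at 14.8 ± 5.63 and 48.3 ± 26.1 CPM (log2FC -1.70, SE 0.42, adjusted p = 0.00358). S100b was at 1.04 ± 0.482 and 3.12 ± 1.96 CPM (log2FC -1.58, SE 0.39, adjusted p = 0.00336). Sox10, which only the female groups brought past the count filter, was at 0.784 ± 0.536 and 2.27 ± 1.31 CPM (log2FC -1.54, SE 0.43, adjusted p = 0.00790). Prx missed the threshold (log2FC -1.27, SE 0.38, adjusted p = 0.0121) and so did Mag (log2FC -1.0, SE 0.42, adjusted p = 0.0645). For each of the 6 genes all 6 CORT males lay below the mean of the CORT females.

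These calls leaned on a few females, as did those over all tested genes. Without F10 only Pmp22 passed, with 14.4% of all tested genes, and without F2 Pmp22 and S100b did, with 20.5%. Leaving out any 1 mouse kept the direction, with the smallest difference at -1.44 for Mbp and -1.17 for each of Pmp22, Sox10 and S100b (log2FC). The Sox10 call was lost in 12 of 33 alternative fits. F2, F6 and F10 were also the CORT females with the most adipocyte transcripts, with sums of 2142, 4231 and 1867 CPM over 7 adipocyte markers against 567 CPM in F4 and 37.1 CPM in F8, and between 68.8 and 439 CPM in CORT males. F10 and M8 had the most liver transcripts, 2339 and 2420 CPM over 6 hepatocyte markers. With the adipocyte score (mean log2 CPM of the 7 markers) added as a covariate, chosen after seeing the data, Pmp22 alone passed, with 11.7% of all tested genes. Without F2, F6 and F10, which left F4 and F8 as CORT females, 1.58% of all tested genes passed. None of the 6 did, with 0 at an unadjusted p under 0.05 in edgeR. The Pmp22 log2FC was then -0.46. Markers of other cells differed in the same comparison, with 5 of 6 fibroblast, 4 of 5 macrophage and 1 of 7 adipocyte markers lower in CORT males. The 7 adipocyte markers all had a negative log2FC, with a median of -3.01, and all 7 had an unadjusted p under 0.05 in edgeR. None of the 6 hepatocyte, 5 endothelial and 6 myofiber markers passed in edgeR, though 2 endothelial and 2 myofiber markers had an unadjusted p under 0.05. The part of cell makeup in these differences was not tested. Whether males and females were processed together is not stated, so that a batch and the sex cannot be told apart.

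The spread of these genes between mice of 1 group was wide. The SD of log2 CPM within groups was 0.47 for Pmp22 and between 0.68 and 0.77 for the other members, against a median of 0.24 over all tested genes, and 82.0% to 93.9% of tested genes varied less. Among VEH females F3 was highest for 5 of the 6 genes and F1 and F7 shared the lowest places, 3 each. F10 was highest for 5 genes among the CORT females, where F4 and F8 were lowest for 3 each. Among CORT males M2 was highest for 5 genes and M4 lowest for 4. Averaged over the 6 genes, log2 CPM lay 0.81 above the group mean in F10, 0.78 above in M2 and 0.75 above in F3, and it fell by 0.85 below the group mean in F4 and by 0.81 in M4.

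**Figure D3:**
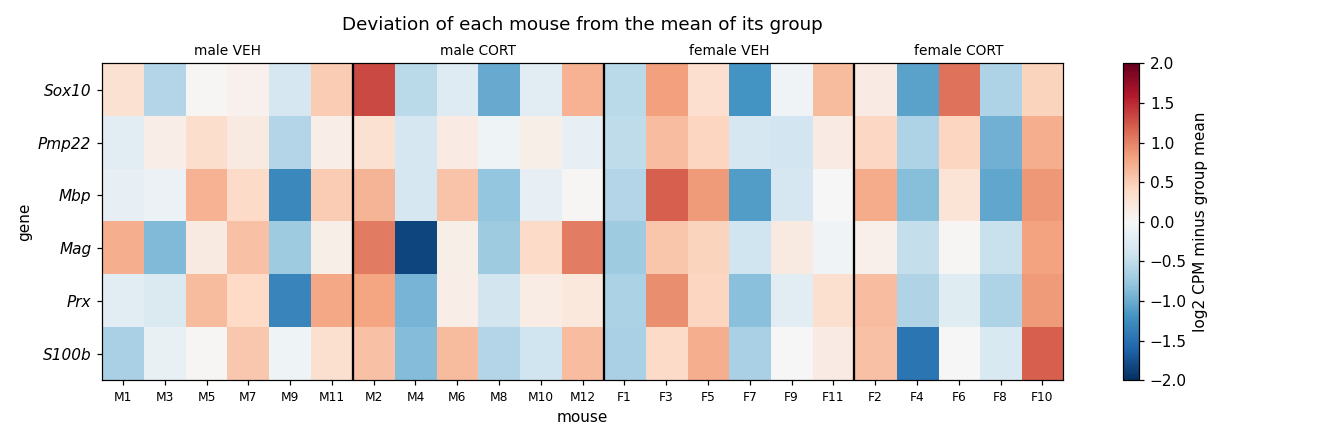
Log2 CPM of each gene (rows) minus the mean of the group, for each mouse (columns), red where the mouse lies above its group and blue where below. Columns are mostly of 1 colour, red in F3, F10 and M2 and blue in F4, F1 and M4.

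The genes went up and down together. Over the 23 mice the deviations from the group means had a Pearson correlation between 0.53 (Pmp22 with Mag) and 0.91 (Mbp with Prx) in the 15 pairs of members, with a median of 0.70, and Spearman's rho between 0.52 and 0.91. Permutation within groups gave p-values up to 0.00334 for Pearson's r and up to 0.00573 for rho after Benjamini-Hochberg adjustment over the 15 pairs, and 1e-05 is the smallest unadjusted p these permutations can give. Without the 2 mice farthest from the median, r lay between 0.51 and 0.88. Within males it was between 0.32 and 0.89 and within females between 0.71 and 0.94. The points share their libraries and normalization.

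The tested genes most like each member over the same 23 mice, by Pearson correlation of the deviations, included other myelin genes for Prx, Mbp, Pmp22 and S100b. Prx went with Mal, a protein of compact myelin membranes (r = 0.94), and Mbp (0.91). Mbp went with Prx (0.91) and Mal (0.91), and Pmp22 with Mbp (0.90), Cnp (0.89) and Cspg4 (0.88), known from pericytes and glial precursors. S100b went with Gatm (0.86) and Mal (0.83). Mag went with Gatm (0.82), Kif1a (0.81) and Nfasc (0.79), the last encoding an adhesion protein of the node of Ranvier. Sox10 went with Aatk (0.85), Rapgef3 (0.84) and Utrn (0.84).

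The members were also compared with the adipocyte marker score, as deviations from the group means. Pearson's r lay between 0.26 (Mag) and 0.54 (Pmp22) and Spearman's rho between 0.26 and 0.51 over 23 mice, and no relation passed 0.05 after Benjamini-Hochberg adjustment over 6 relations (permutation within groups, adjusted p between 0.173 and 0.240 for r and between 0.132 and 0.204 for rho). Without the 2 mice farthest from the median, F8 and M7, r was between 0.34 and 0.48. In the 11 females r ran from 0.53 to 0.77 and in the 12 males from -0.20 to 0.020. Whether the sexes differ in this was not tested.

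**Figure D4:**
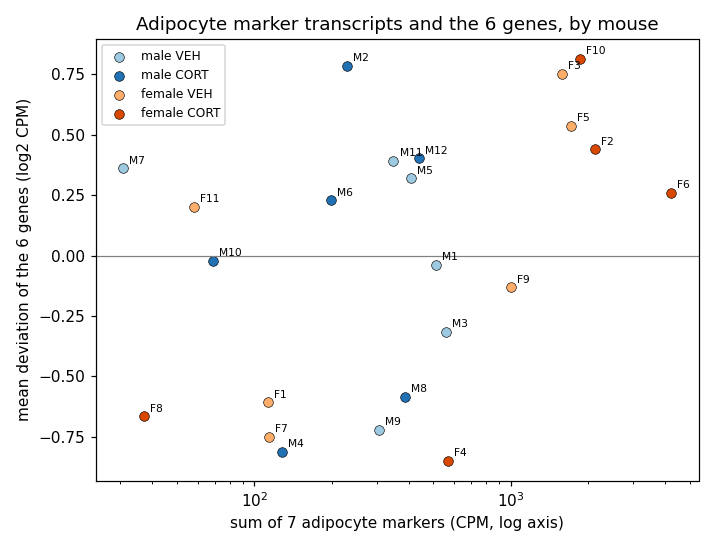
Mean deviation of the 6 genes from the group mean in log2 CPM (vertical axis) against the sum of 7 adipocyte markers in CPM (horizontal axis, log scale), 1 point per mouse. F2, F6 and F10 lie at 1867 to 4231 CPM and above 0 on the vertical axis, while M2, at 0.78, had 229 CPM.

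Ratios between members within a mouse do not depend on library size or on how much nerve a piece of muscle holds, as long as the genes come from the same cells. This comparison was chosen after seeing the data. It covered the 15 pairs in each sex, 30 comparisons in all, by two-sided exact permutation tests. In females 3 ratios separated every CORT mouse from every VEH mouse, all involving Mag. Mag passed the count filter only through the VEH females, where it was highest, so that a lower Mag with CORT is not independent of the filter. Pmp22 counts per Mag count were 47.0, 41.1, 38.9, 42.0, 26.7 and 47.0 in F1, F3, F5, F7, F9 and F11, and 99.1, 74.5, 106.7, 57.5 and 73.8 in F2, F4, F6, F8 and F10. Mbp counts per Mag count ran from 13.1 to 33.2 in VEH females and from 37.5 to 85.7 in CORT females. The 5 CORT females, the low mice F4 and F8 included, thus had fewer Mag counts per count of Pmp22 or Mbp. With CORT against VEH in females the log2FC was 0.59 for Pmp22, 0.85 for Mbp and -0.47 for Mag, none past the threshold. Which gene carried the shift was not tested.

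On the log2 scale Pmp22 relative to Mag was higher with CORT by 1.01 (SE 0.20, exact permutation p = 0.00216, the smallest possible), in 5 of 5 mice. Mbp relative to Mag was higher by 1.37 (SE 0.30, exact permutation p = 0.00433), and Mag relative to Prx had a log2 difference of -0.74 (SE 0.20, exact permutation p = 0.00649). Each of these exact permutation tests had p = 0.0649 after Benjamini-Hochberg adjustment over the 30 comparisons, so that none passed 0.05. Among the other female ratios, whose groups overlapped, Mbp shifted relative to Prx by 0.64 (exact permutation p = 0.0173) and relative to S100b by 0.71 (exact permutation p = 0.0498). Mag shifted relative to S100b by -0.67 (exact permutation p = 0.0455), and Sox10 relative to Mag by 0.64 (exact permutation p = 0.102). The adjusted p of these exact permutation tests lay between 0.130 and 0.381. In males the first 3 ratios shifted by 0.26 (SE 0.59), 0.62 (SE 0.55) and -0.48 (SE 0.45), with exact permutation p of 0.688, 0.301 and 0.325, and the groups overlapped. Mag had between 11 and 37 counts in a female and between 1 and 18 in a male, so that the male ratios carry more counting error. Leaving out any 1 female kept the 3 differences between 0.90 and 1.13, 1.22 and 1.52, and -0.61 and -0.82. Whether the shift differs between the sexes was not tested.

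**Figure D5:**
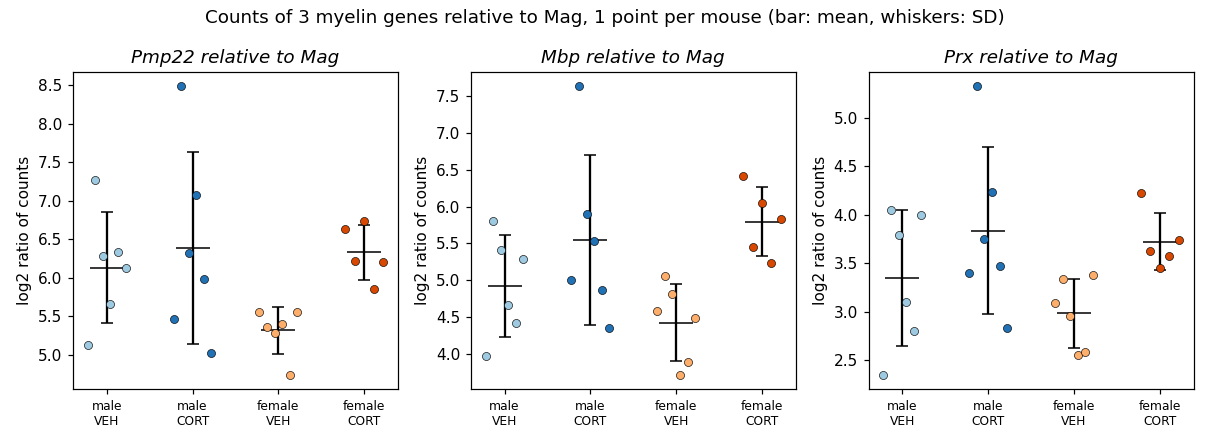
Log2 ratio of the counts of Pmp22, Mbp and Prx to those of Mag (vertical axes) in the 4 groups, with 1 point per mouse, a bar at the mean and whiskers of 1 SD. In females every CORT mouse lies above every VEH mouse in all 3 panels, while the males overlap, with M4 (1 count of Mag) highest.

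A wider list of 26 genes of myelinating Schwann cells held 20 tested genes. In males 3 changed with CORT past the threshold, where 26.3% of all tested genes did. Sh3tc2, a Schwann cell protein of endosomes linked to a hereditary neuropathy, fell from 1.44 ± 0.217 to 0.724 ± 0.302 CPM (SD, n = 6 each, log2FC -0.99, adjusted p = 0.00883), and Lpar1, a lysophosphatidic acid receptor, from 8.85 ± 2.38 to 4.57 ± 1.33 CPM (log2FC -0.95, adjusted p = 0.00364). Mpp6, a scaffold protein that many other cells also make, rose from 71.1 ± 3.70 to 105 ± 9.81 CPM (log2FC 0.56, adjusted p = 0.000221). Between mice Sh3tc2 followed the 6 members (r = 0.74 with their mean deviation), Lpar1 hardly did (r = 0.19) and Mpp6 ran against them (r = -0.57). Which cells carried these 3 changes was not tested. Without M4 or without M11, 1 gene of the list passed, with 22.1% and 22.7% of all tested genes. In females 0 of the 20 passed in edgeR and DESeq2 and 2 in limma-voom, with 6 at an unadjusted p under 0.05 in edgeR. Of all tested genes 13.4% passed there in edgeR, 18.8% in DESeq2 and 18.8% in limma-voom. Egr2, the partner of Sox10, did not pass the filter, with group means between 0.359 and 1.05 CPM.

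Between the sexes under CORT 9 of the 20 genes were lower and 2 higher in males, with a median log2FC of -1.08. Fa2h passed the count filter only through the CORT females, and Ncmap and Dhh only through female groups. The count of lower genes and the median are therefore not fully independent of the filter. Over all tested genes 23.3% passed in either direction, 14% were lower in males and the median was -0.029. Those lower included Drp2, which binds periaxin (log2FC -1.52, adjusted p = 0.000669). The 2 higher were Mpp6 and Plekhb1, which also ran against the 6 members between mice (r = -0.57 and -0.52 with their mean deviation), while 15 of the 20 had r over 0.5. Without F10 the number of calls fell from 11 to 3, and without F2, F6 and F10 to 0, where 14.4% and 1.58% of all tested genes passed. With vehicle 0 of the 20 passed in edgeR and limma-voom and 1 in DESeq2, with 8 at an unadjusted p under 0.05 in edgeR. Of all tested genes 0.958% passed there in edgeR, 1.43% in limma-voom and 2.18% in DESeq2.

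Of 10 genes of non-myelinating and repair Schwann cells 4 were tested. Ngfr, the low-affinity neurotrophin receptor of immature and repair Schwann cells, fell in females from 2.12 ± 0.728 to 0.536 ± 0.213 CPM (SD, n = 6 and 5, log2FC -1.98, SE 0.39, adjusted p = 0.00106). It passed the count filter only through the VEH females, the group where it was highest, so that this fall is not independent of the filter. In males Ngfr was at 0.691 ± 0.303 with VEH and 0.535 ± 0.359 CPM with CORT (log2FC -0.36, adjusted p = 0.489), and the interaction had an adjusted p of 0.0558. Scn7a, a sodium channel of non-myelinating Schwann cells, rose in females from 10.1 ± 3.70 to 29.5 ± 17.4 CPM (log2FC 1.55, SE 0.32, adjusted p = 0.00142), while in males its log2FC was 0.0013 (SE 0.31). The CORT females had 33.8 (F2), 18.4 (F4), 52.9 (F6), 7.28 (F8) and 35.1 CPM (F10) of Scn7a, the 3 highest being the mice with the most adipocyte transcripts. Without F2, F6 and F10 its log2FC was 0.34 (adjusted p = 0.630), and that of Ngfr was -1.70 (adjusted p = 0.104). The part of cell makeup in the Scn7a difference was not tested. Jun, which drives the repair state of Schwann cells and is used by most other cells, rose in males from 73.5 ± 16.4 to 161 ± 22.4 CPM (log2FC 1.13, adjusted p = 1.58e-06), in 6 of 6 mice. In females it was at 71.7 ± 9.76 and 90.7 ± 7.75 CPM (SD, n = 6 and 5, log2FC 0.34, SE 0.14, adjusted p = 0.0744), and all 4 genes had an unadjusted p under 0.05 in females in edgeR. The median correlation of the 4 genes with the mean deviation of the 6 members was 0.34, against 0.74 for the wider myelin list, 0.71 for 4 genes of the perineurium, the sheath around nerve bundles, and 0.40 for the adipocyte markers. Of the perineurial genes 0 of 4 changed with CORT in either sex in edgeR (0 in males and 2 in females at an unadjusted p under 0.05). Of all tested genes 26.3% passed in males and 13.4% in females. Itgb4 and Moxd1 were lower in CORT males than in CORT females (log2FC -1.45 and -1.46, adjusted p = 0.00620 and 0.00431), as were 14% of tested genes. Moxd1 passed the count filter only through the CORT females, the group where it was highest, so that its call is not independent of the filter.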

How the data were processed

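Quadriceps RNA of 23 mice was sequenced as stranded paired-end mRNA libraries. The authors aligned reads to mm10 with STAR 2.7.3a, counted them per gene by strand with HTSeq-count 0.12.4 on Ensembl annotation, and deposited raw counts per gene and mouse. The 5 summary entries for unassigned reads (10.7% to 15.3% of a mouse's total) were left out. GENCODE M21 on GRCm38 gave names, positions and exon lengths and matched 55480 of the 55573 gene IDs.

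Groups follow the labelled sex and treatment. Counts were tested with edgeR 4.0.16 in R 4.3.3, by the quasi-likelihood test with TMM normalization and 1 mean for each of the 4 groups, over the 13049 genes whose normalized count exceeded 20 in 4 or more mice of some group. P-values were adjusted over them by Benjamini-Hochberg, and 0.01 was the threshold. The study's methods name DESeq2 for this, and DESeq2 1.42.0 and limma 3.58.1 (voom) served as alternatives, with other filters and scaling, a block on replicate numbers, each sex alone and each mouse left out. Log2 CPM for correlations used a prior count of 1, and permutation tests used 100000 permutations within groups. Replicates differed far beyond sampling noise (chi-square over its degrees of freedom at least 15.0), so that no library was a copy of another. Counts on genes were at least 20904150 per mouse, and counting limits the precision of scarce genes.

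The members and lists were chosen with earlier results of these data known. Named in the text are the 6 members, genes of the Schwann cell lists that passed in either treatment comparison, Egr2, and up to 3 tested genes most like each member. A few genes that the rule would name are left out of the text. Drp2, Plekhb1, Itgb4 and Moxd1 were named after their values were seen.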

Additional observations from a re-analysis of the deposited data

How the results depend on the processing

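Over the alternatives, 0 of the 6 members passed for CORT against VEH in either sex, for the interaction or for the sexes under VEH. For the sexes under CORT, where 4 passed, 1 passed with the adipocyte score as a covariate, 1 without F10 and M8 and 0 without F2, F6 and F10 (edgeR, 0 at an unadjusted p under 0.05), all chosen after seeing the data. Of all tested genes 11.7%, 10.6% and 1.58% passed in these fits. Leaving out 1 mouse gave between 1 (without F10) and 5, and DESeq2 and limma-voom gave 5 each, adding Prx. The Pmp22 call was lost in 1 of 33 alternatives, that of S100b in 4, Mbp in 5 and Sox10 in 12. The cause was not tested.

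No value that passed changed sign. Among the log2FC that did not pass, Mbp in males became 0.058 in limma-voom and 0.0068 without F10 and M8, and leaving out 1 mouse gave between -0.30 and 0.019. In females, with the adipocyte covariate, Sox10 became -0.26 and Prx -0.0318, without F10 and M8 Prx became -0.0336 and S100b -0.0666, and without F2, F6 and F10 Sox10 became -0.88, Pmp22 -0.34, Mbp -0.31, Prx -0.52 and S100b -0.72. Leaving out 1 mouse there gave between -0.038 and 0.48 for Prx, -0.070 and 0.57 for S100b and -0.18 and 0.38 for Sox10. The interaction, without F2, F6 and F10, became 0.64 for Sox10, 0.20 for Mbp, 0.25 for Prx and 0.48 for S100b. For Mag it became -0.24 in limma-voom and -0.25 with the replicate block, and between -0.19 and 0.36 without 1 mouse.

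Of the wider list, 3 passed in males and 0 did with a log2FC beyond 1, and 1 to 4 when 1 mouse was left out. Limma-voom called 2 in females and 1 for the interaction, and DESeq2 and the replicate block 1 each for the sexes under VEH. Of the 11 genes for the sexes under CORT, 4 passed with the adipocyte covariate, 2 without F10 and M8, 0 without F2, F6 and F10 (edgeR, 5 at an unadjusted p under 0.05), 7 with a log2FC beyond 1, and 3 to 14 without 1 mouse. The limit from the count filter, given above for Fa2h, Ncmap and Dhh, holds for these numbers too. The median correlation between members ranged from 0.62 (males) to 0.84 (females). Over all tested genes the counts moved too. For CORT against VEH 3426 genes passed in males (982 with a log2FC beyond 1, 4129 in limma-voom) and 1748 in females (130 without F2, F6 and F10, 2458 in DESeq2). The interaction passed for 90 genes (1 with the adipocyte covariate, 896 in DESeq2), and the sexes differed in 125 genes under VEH (75 with a log2FC beyond 1, 284 in DESeq2) and in 3043 under CORT (206 without F2, F6 and F10, 3843 in DESeq2).

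Same-numbered males and females did not deviate together in all 11 pairs (r from -0.38 to 0.48, median 0.24). Among males of the same treatment, 4 of 11 females correlated best with their own number. Whether the numbers stand for a pairing or shared handling cannot be told from these values, and the labels do not say. With the replicate block 3 of the 6 members passed for the sexes under CORT, since Sox10 had an adjusted p of 0.0103 (edgeR), and other calls of members were as without it.

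Counts limit Mag and Sox10 most, and with 5 CORT females 1 mouse can decide a call.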
